A study of Rattus norvegicus with 54 samples.

Results

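Of the 15866 probe sets on the array, 10 measured the 9 genes described here, and every probe set that the platform annotation assigns to their symbols was used. The genes belong to the glucocorticoid response and to muscle wasting. They are the glucocorticoid receptor gene Nr3c1 (with 2 probe sets), the steroid-activating enzyme gene Hsd11b1, the hormone-induced genes Fkbp5, Tsc22d3, Klf15 and Sgk1, the muscle ubiquitin ligase genes Fbxo32 and Trim63, and the growth arrest gene Gadd45a. Epididymal adipose tissue, liver and gastrocnemius muscle of male Zucker rats were profiled on 54 Affymetrix arrays, in 6 groups of 3 arrays per tissue. The groups were fatty (fa/fa) rats given AG035029, pioglitazone, rosiglitazone or troglitazone, untreated fatty (fa/fa) rats on normal chow, called untreated obese here, and lean (fa/+) rats on normal chow. The fa allele disables the leptin receptor, and the lean rats carried 1 copy of it, so no group was free of it. RNA of 2 rats was pooled for each array, so 3 arrays stood for 6 rats, and the spread between arrays is that between pools. The 4 compounds are ligands of the nuclear receptor PPARγ. Pioglitazone, rosiglitazone and troglitazone are thiazolidinediones, and troglitazone carries a chroman ring in its side chain where the other two carry a pyridine. AG035029 is known here by its code alone. Doses, treatment times and ages are not given in the sources used here, so values of the 4 ligands stand side by side and were not matched for dose.

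Glucocorticoids act through a receptor that waits in the cytosol in a complex with Hsp90 chaperones and enters the nucleus once the hormone binds. Fkbp5 encodes a co-chaperone of that complex that lowers the receptor's affinity for the hormone, and its own induction forms a short negative feedback loop. Hsd11b1 encodes the enzyme that regenerates active hormone inside cells, mainly in liver and adipose tissue. In muscle, the hormone and the FoxO factors raise the ubiquitin ligases encoded by Fbxo32 (atrogin) and Trim63 (MuRF), which mark muscle proteins for breakdown in wasting.

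RefSeq promoter sequences (rat build GRCr8, 250 bases before the transcription start) were held for 7 of the 9 genes, in 12 entries. Fbxo32 and Hsd11b1 had none. The Trim63 and Tsc22d3 promoters are shown because they were the entries among the 12 with a match to the searched motifs, and those of Fkbp5 and Klf15 because these genes rose together with Tsc22d3 in treated adipose tissue. Each is written 5′ to 3′ along the gene's strand, and capitals mark the matches.
Trim63 (chr5:151816986-151817235, plus strand): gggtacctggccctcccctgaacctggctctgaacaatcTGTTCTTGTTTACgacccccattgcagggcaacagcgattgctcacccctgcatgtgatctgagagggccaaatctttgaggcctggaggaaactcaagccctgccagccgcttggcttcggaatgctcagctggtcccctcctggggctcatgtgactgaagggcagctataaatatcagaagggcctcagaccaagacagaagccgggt
Tsc22d3 (chrX:109010035-109010284, minus strand): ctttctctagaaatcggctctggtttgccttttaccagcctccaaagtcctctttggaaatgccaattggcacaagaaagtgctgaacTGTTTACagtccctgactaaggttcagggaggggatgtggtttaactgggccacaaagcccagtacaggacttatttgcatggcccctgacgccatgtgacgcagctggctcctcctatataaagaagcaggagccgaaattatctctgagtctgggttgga
Fkbp5 (chr20:6543556-6543805, minus strand): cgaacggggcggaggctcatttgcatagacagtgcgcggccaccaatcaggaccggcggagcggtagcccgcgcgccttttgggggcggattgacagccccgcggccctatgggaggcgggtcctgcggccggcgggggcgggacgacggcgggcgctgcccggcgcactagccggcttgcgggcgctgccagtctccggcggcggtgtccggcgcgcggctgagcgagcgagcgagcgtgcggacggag
Klf15 (chr4:124522765-124523014, plus strand): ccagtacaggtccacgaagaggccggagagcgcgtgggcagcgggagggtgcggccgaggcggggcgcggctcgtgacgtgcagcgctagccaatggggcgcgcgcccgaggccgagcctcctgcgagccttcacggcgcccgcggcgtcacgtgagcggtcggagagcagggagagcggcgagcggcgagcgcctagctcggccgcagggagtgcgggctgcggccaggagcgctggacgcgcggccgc
In the Trim63 promoter, a glucocorticoid receptor hexamer read on the opposite strand (TGTTCT, from base -211) stood directly before a FoxO core (TGTTTAC, from base -205), without overlap. The Tsc22d3 entry held a FoxO core from base -162. Both strands were searched for 4 motifs. Among 33469 rat promoters of this length, the receptor hexamer AGAACA was in 17.5%, the FoxO core TGTTTAC in 3.21%, the full receptor palindrome in 0.012% and the PPAR direct repeat in 0.0508%. The palindrome and the direct repeat were in none of the 12 entries. A match describes the letters in this window and is not evidence of binding.

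All values are MAS5 signals, the linear hybridisation intensities that the authors deposited, with the arrays scaled to a nearly equal trimmed mean. Array medians were 205 to 248 for adipose tissue, 201 to 248 for liver and 191 to 233 for muscle. Tests were run on log2(signal + 20) with limma, over the 9519 probe sets per tissue whose mean lay above the tissue's 40th percentile. Changes are therefore on that log2 scale, which understates changes of dim genes, and are followed by their standard error (SE). A probe set was called where its Benjamini-Hochberg adjusted p, over all 9519, was under 0.05. The members and gene lists were chosen with earlier results of these data known. Their counts of calls beside the share of all probe sets therefore describe them and test no excess. Where groups are said not to overlap, the share of all probe sets that separated in this way was not counted. Of the 10 probe sets, 7 were tested for adipose tissue, 7 for liver and 9 for muscle. Fbxo32 and Trim63 passed the filter only in muscle, and the dimmer Nr3c1 probe set (2.5 to 245 over the 54 arrays) in none, so Nr3c1 below means the brighter one. Hepatocyte and muscle fibre markers matched the labelled tissues. The 7 hepatocyte genes summed to at least 193346 on liver arrays and at most 10056 elsewhere. The 6 muscle fibre genes summed to at least 218840 on muscle arrays. Adipocyte markers did not separate every adipose array from muscle. Their 5 genes summed to 31506 to 46827 on adipose arrays and at most 983 on liver arrays, but to 32547 on muscle troglitazone array 1. Marker sums of other tissues stood apart on some arrays. The muscle fibre genes summed to 21133 on the troglitazone liver array 3 against at most 1189 on other liver arrays, and to 2015 and 1666 on lean adipose arrays 2 and 3 against at most 987 on other adipose arrays. No pair of arrays held identical values.

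In lean rats most of the genes differed between tissues. Hsd11b1 was a liver gene: lean livers had signals of 10566, 17422 and 10131, against 1069.7, 1173 and 971 in lean adipose tissue and 448.5, 368 and 487 in lean muscle. Its liver level exceeded that of muscle by 4.77 ± 0.23 log2 (adjusted p = 3.98e-22) and the adipose minus liver difference was -3.50 ± 0.23 log2. Adipose tissue lay above muscle. Both ubiquitin ligases were muscle genes. Lean muscle gave Trim63 signals of 2819, 2309 and 2752, against 14.2, 7.4 and 39.0 in adipose tissue and 66.2, 15.9 and 10 in liver. For Fbxo32, lean muscle gave 343, 336 and 133.5, against 34.9, 45.5 and 25 in adipose tissue and 52.8, 13.1 and 36.7 in liver, so the lowest muscle array stood above every lean array of the other tissues. No difference between adipose tissue and liver was called for either ligase (adjusted p = 0.715 for Trim63 and 0.897 for Fbxo32).

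Tsc22d3, which encodes the anti-inflammatory leucine zipper protein GILZ, was highest in lean muscle (4418.5 ± 157; SD, n = 3), then in adipose tissue (2620.5 ± 289), then in liver (1459 ± 98.0), and each step passed the test. Klf15, a transcription factor that drives amino acid breakdown and gluconeogenesis, was highest in liver (1953 ± 428), while adipose tissue (982 ± 145) and muscle (856 ± 90.6) were not separated beyond their spread (adjusted p = 0.505). Nr3c1 was also highest in liver (1638 ± 137), with no call between adipose tissue (1147 ± 54.6) and muscle (1062 ± 177; adjusted p = 0.564). Fkbp5 was lowest in liver (345 ± 20.6), and adipose tissue (918 ± 291) and muscle (686 ± 124) were not separated (adjusted p = 0.165). Gadd45a, a DNA damage and growth arrest gene, was highest in adipose tissue (1119 ± 234), ahead of liver (749 ± 459.8; adjusted p = 0.0496) and muscle (443 ± 15.4). Sgk1, a kinase gene induced by the hormone, averaged 871 ± 211 for adipose tissue, 765 ± 206 for liver and 939 ± 93.4 for muscle, and was the 1 gene of 9 with no tissue difference called (adjusted p = 0.438). Such differences were common: 76.4% of 11520 probe sets tested across all 54 arrays differed between the lean tissues.

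**Figure D1:**
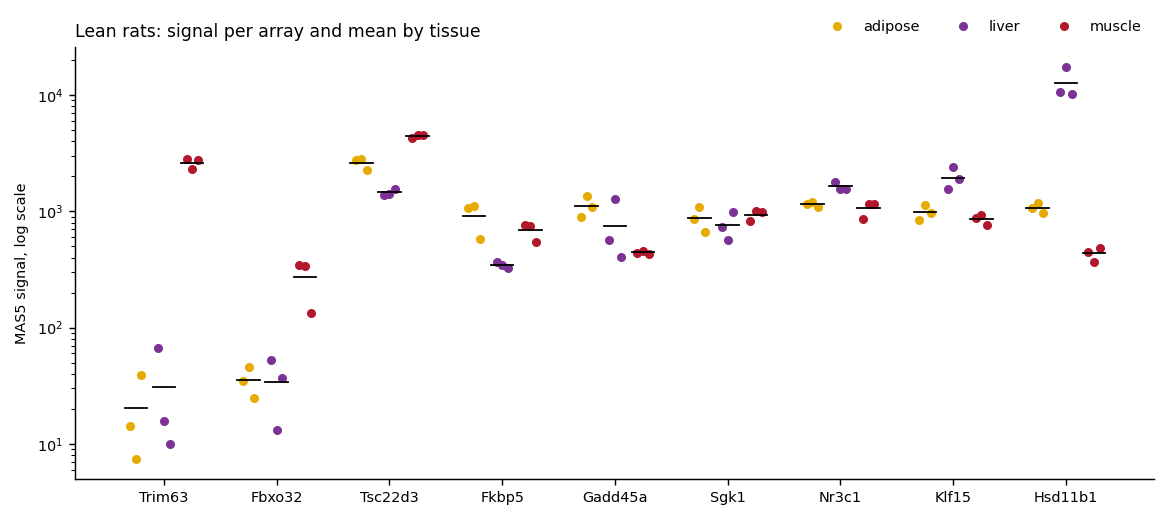
MAS5 signals (log axis) of the 9 genes in lean rats, with 1 point per array, 3 arrays per tissue, and a line at the mean. Heights compare tissues within a gene, not genes with each other. Trim63 and Fbxo32 stand highest in muscle, Hsd11b1 in liver, and the Sgk1 points of the 3 tissues overlap.

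Untreated obese adipose tissue had less Klf15 and more Gadd45a than lean tissue, and these were 2 calls among the 7 members tested, where 6.02% of all probe sets were called. Klf15 signals were 482, 362 and 463 on untreated obese arrays, against 849, 1137 and 958 on lean arrays, and the groups did not overlap. Its level fell by 1.14 ± 0.19 log2 (adjusted p = 0.00135), to 0.455 times the lean level. For Gadd45a, untreated obese arrays had 1952, 1608.5 and 1799, against 896, 1363 and 1099 on lean arrays. Gadd45a rose by 0.68 ± 0.17 log2 (adjusted p = 0.0219), with no overlap of the groups. Without untreated obese array 1 or 3, or lean array 1 or 3, its adjusted p passed 0.05, up to 0.113. In bulk tissue, fewer cells of a type and less RNA per cell cannot be told apart.

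The other 5 members tested there were not called. Nr3c1 had 898, 860.1 and 1086 on untreated obese arrays, against 1159.9, 1194 and 1087 on lean arrays, which did not overlap by a narrow margin (-0.28 ± 0.12 log2, adjusted p = 0.18). Tsc22d3 had 1808, 2466 and 1901.5 on untreated obese arrays, against 2782, 2792 and 2287 on lean arrays (-0.35 ± 0.15 log2, adjusted p = 0.169). Its lowest lean array lay below the highest obese one. Changes of Fkbp5 (-0.21 log2), Sgk1 (-0.23) and Hsd11b1 (0.17) had adjusted p of 0.649, 0.676 and 0.664, with 95% intervals of -0.66 to 0.25, -0.77 to 0.31 and -0.23 to 0.58.

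With the 4 ligands averaged, Fkbp5, Klf15 and Tsc22d3 rose in obese adipose tissue and Gadd45a fell. These were 4 calls among 7 members tested, beside 20.6% of all probe sets. That tests no excess, because the members were chosen with earlier results known. Fkbp5 signals in adipose tissue were 1415, 1625 and 1379.6 with AG035029, 1117, 1195 and 1412 with pioglitazone, 1429.9, 1573 and 1419 with rosiglitazone and 1328.5, 2225 and 1985 with troglitazone. For Fkbp5, untreated obese arrays had 952.5, 739.8 and 629 and lean arrays 1059, 1111 and 583. Every treated array stood above every untreated obese and every lean array, the closest pair being 1117 with pioglitazone and 1111 in a lean pool. The treated mean was 1509 ± 315 (SD, n = 12), against 774 ± 164 in untreated obese rats (n = 3), a rise of 0.94 ± 0.17 log2 (adjusted p = 0.00074), or 1.92-fold.

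Klf15 moved toward its lean level. Adipose Klf15 signals were 604, 914 and 759 with AG035029, 664, 564 and 663 with pioglitazone, 692, 628 and 563.5 with rosiglitazone and 729, 1208.5 and 723 with troglitazone. All 12 treated arrays lay above the 3 untreated obese ones (362 to 482), 1 AG035029 array (914) fell within the lean range (849 to 1137), and 1 troglitazone array (1208.5) stood above it. Klf15 rose by 0.69 ± 0.15 log2 relative to untreated obese rats (adjusted p = 0.00303), to a treated mean of 726 ± 179.7, against 436 ± 64.4 in untreated obese rats. It stayed below lean rats, with a treated minus lean difference of -0.45 ± 0.15 log2 (adjusted p = 0.027).

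Tsc22d3 signals in adipose tissue were 2865, 3609.9 and 3069 with AG035029, 2406, 2896 and 3188 with pioglitazone, 2404, 2839 and 2460.0 with rosiglitazone and 3205, 3522 and 4136 with troglitazone. For Tsc22d3, the untreated obese range was 1808 to 2466, so the lower rosiglitazone and pioglitazone arrays overlapped it, while every AG035029 and troglitazone array lay above it. Tsc22d3 rose by 0.56 ± 0.12 log2 over the 4 ligands (adjusted p = 0.00202), and the treated minus lean difference was not called (0.20 log2, adjusted p = 0.179).

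Gadd45a went the other way. Its adipose signals were 864, 756 and 819.9 with AG035029, 1260.2, 1003 and 837 with pioglitazone, 943, 675 and 688 with rosiglitazone and 837, 824 and 684 with troglitazone. The highest treated array (1260.2) lay below the lowest untreated obese one (1608.5). Gadd45a fell by 1.07 ± 0.13 log2 relative to untreated obese rats (adjusted p = 2.12e-05), to a treated mean of 849 ± 164, against 1786 ± 172 in untreated obese rats. It also lay below lean rats (-0.39 ± 0.13 log2, adjusted p = 0.0303).

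**Figure D2:**
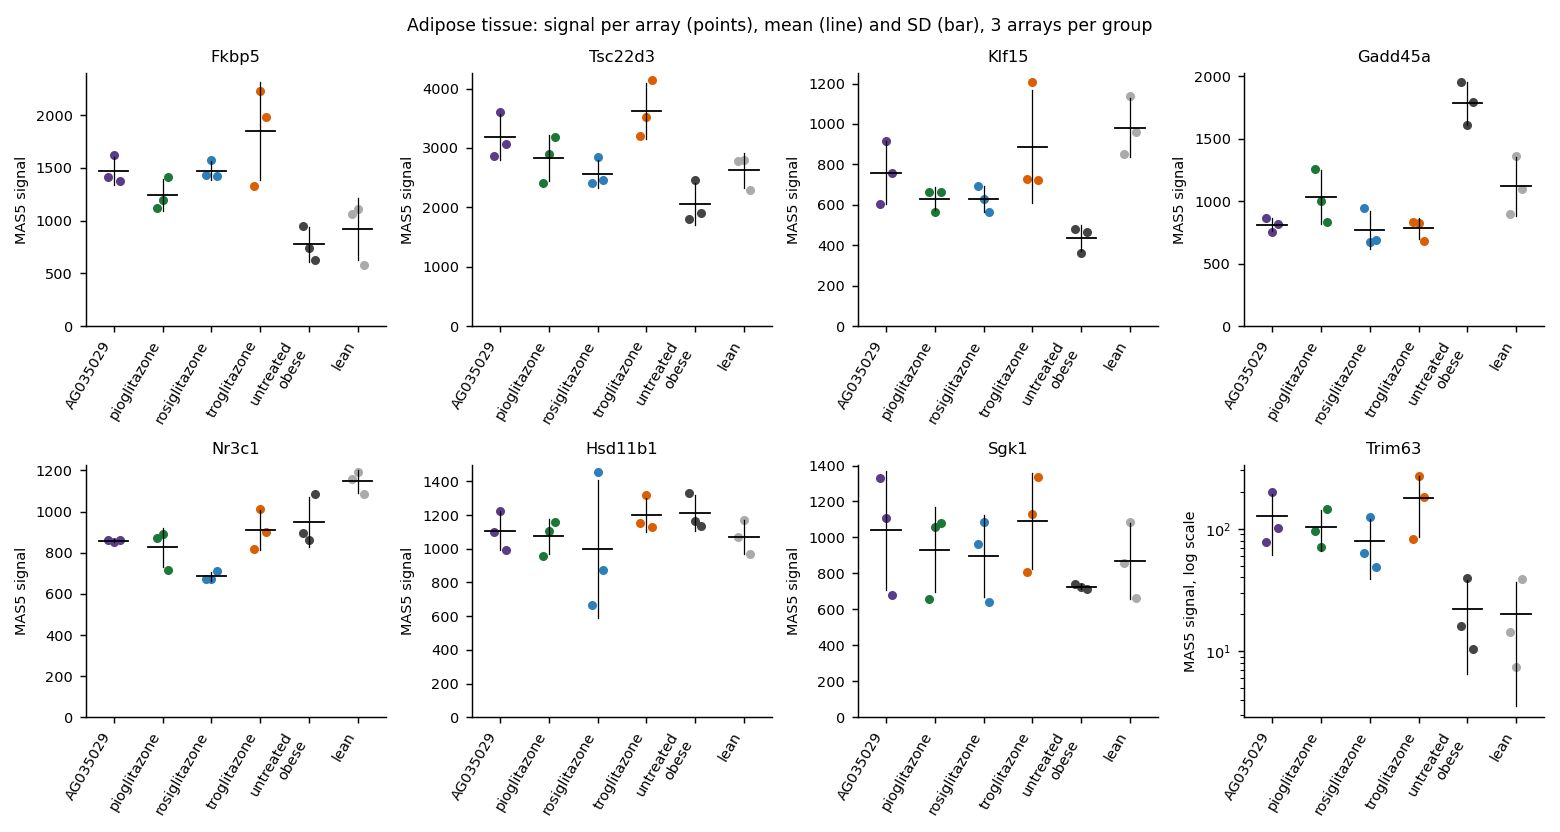
MAS5 signals of 8 of the genes in epididymal adipose tissue, with 1 point per array, a line at the mean and a bar of 1 SD, 3 arrays per group. The Trim63 axis is logarithmic. Fkbp5 and Klf15 points of the 4 ligands lie above those of untreated obese rats, and the Gadd45a points lie below them.

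The receptor and the activating enzyme were not called for the mean of the ligands relative to untreated obese rats. Nr3c1 signals in adipose tissue were 860.0, 850.2 and 864 with AG035029, 869, 890.1 and 718 with pioglitazone, 672, 671 and 711 with rosiglitazone and 817, 1011 and 899.8 with troglitazone. All 12 lay below the lean range of 1087 to 1194, and the treated minus lean difference was called (-0.48 ± 0.092 log2, adjusted p = 0.00057). Relative to untreated obese rats the mean change was -0.21 ± 0.092 log2 and was not called (adjusted p = 0.116). Hsd11b1 ranged from 668 to 1456 on treated arrays, around the untreated obese range of 1137 to 1331 (-0.16 log2, adjusted p = 0.472). Sgk1 spread from 642 to 1335 on treated arrays, against 714 to 741 on untreated obese arrays (0.40 ± 0.20 log2, adjusted p = 0.18). Treated against lean tissue thus gave 4 calls among the 7 members, Fkbp5 higher (0.73 ± 0.17 log2, adjusted p = 0.00285) and Nr3c1, Klf15 and Gadd45a lower, where 35.5% of all probe sets were called. Without lean array 3 the Fkbp5 call was lost (adjusted p = 0.0534), and without lean array 2 or 3 those of Klf15 (up to 0.168) and Gadd45a (up to 0.248) were lost. After median centring of the arrays, Klf15 and Gadd45a were not called against lean rats either (adjusted p = 0.12 and 0.152).

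By single ligand, 14 of 28 tests in adipose tissue were called. AG035029 gave 4 of 7, with Fkbp5 at 0.93 ± 0.22 log2 (adjusted p = 0.00736), Klf15 at 0.76 (0.0108), Tsc22d3 at 0.63 (0.00681) and Gadd45a at -1.11 (0.000268). Over all probe sets, 15.1% were called with AG035029. Troglitazone gave the same 4 genes, with Fkbp5 at 1.22 ± 0.22 log2 (adjusted p = 0.00079), Klf15 at 0.96 (0.0018), Tsc22d3 at 0.81 (0.000826) and Gadd45a at -1.17 (0.000137), beside 16.9% of all probe sets. Pioglitazone gave 3, with Gadd45a at -0.79 ± 0.17 log2 (adjusted p = 0.0042), Fkbp5 at 0.68 (0.0427) and Tsc22d3 at 0.46 (0.0417), beside 14.5%. Its Klf15 change of 0.52 ± 0.19 log2 was not called (adjusted p = 0.0745).

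Rosiglitazone gave 3 calls, beside 5.56% of all probe sets. Gadd45a fell by 1.21 ± 0.17 log2 (adjusted p = 0.000299), Fkbp5 rose by 0.93 ± 0.22 (adjusted p = 0.0163) and Nr3c1 fell by 0.45 ± 0.12 (adjusted p = 0.0282). The rosiglitazone Nr3c1 arrays (671 to 711) lay below all 3 untreated obese arrays (860.1 to 1086). Klf15 (0.51 ± 0.19 log2, adjusted p = 0.136) and Tsc22d3 (0.33 ± 0.15 log2, adjusted p = 0.225) were not called with it. Several calls were lost without 1 array. Nr3c1 with rosiglitazone was lost without untreated obese array 1 or 3 or any rosiglitazone array (adjusted p up to 0.149), and Fkbp5 with rosiglitazone without untreated obese array 2 or 3 or rosiglitazone array 3 (up to 0.0822). Klf15 with AG035029 was lost without AG035029 array 2 or untreated obese array 2 (up to 0.0644). Fkbp5 with pioglitazone was lost without untreated obese array 2 or 3, AG035029 array 3 or any pioglitazone array (up to 0.155), and Tsc22d3 with pioglitazone without untreated obese array 1 or 3 or pioglitazone array 2 or 3 (up to 0.167). Klf15 with pioglitazone was called without troglitazone array 2 (0.0306), which enters only the shared spread. Hsd11b1 with rosiglitazone had signals of 668, 1456 and 873 and was not called (adjusted p = 0.351), but reached an adjusted p of 0.00991 without array 2.

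Trim63, dim in adipose tissue, was left out by the filter. Its adipose signals were 77.3, 201 and 101.4 with AG035029, 96.1, 70.9 and 146 with pioglitazone, 63.7, 124 and 49.0 with rosiglitazone and 83.2, 267 and 182 with troglitazone. For Trim63, untreated obese arrays had 16.1, 39.9 and 10.4 and lean arrays 14.2, 7.4 and 39.0, so every treated array lay above all 6 untreated ones. With no filter, it rose with the 4 ligands by 1.69 log2 (adjusted p = 0.00374), while obese and lean rats differed by 0.083 (0.96). By ligand the unfiltered changes were 1.77 with AG035029 (adjusted p = 0.018), 1.58 with pioglitazone (0.0352), 1.22 with rosiglitazone (0.176) and 2.17 with troglitazone (0.00423). The mean over the 18 arrays was in the lowest 40% of probe sets, and no detection calls were used here. The 6 muscle fibre markers summed to 348.5 to 987 on treated adipose arrays, against 508 to 623 on untreated obese ones. Fbxo32 stayed within 17.9 to 75.6 on all 18 adipose arrays.

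Cell type markers moved in the same arrays. In adipose tissue 14 macrophage genes, all tested, summed to 22043 to 43730.2 on ligand arrays, against 46404.5 to 49032 on untreated obese arrays and 23429 to 27841 on lean arrays. By ligand the sums were 23556 to 27743 with AG035029, 26454 to 33410.0 with pioglitazone, 31822.5 to 43730.2 with rosiglitazone and 22043 to 31388 with troglitazone. Of the 14, 11 fell with the ligands and 9 were higher in untreated obese than in lean rats. Over all adipose probe sets, 11.6% were called lower and 9.01% higher with the ligands, and 3.16% were called higher in untreated obese rats. Lymphocyte markers (11 genes) summed to 1452 to 2396 on ligand arrays, against 2858 to 3049 on untreated obese arrays and 2124 to 2448 on lean arrays, and 3 of the 5 tested fell with the ligands. Fibroblast markers (8 genes) summed to 33169 to 51537.5 on ligand arrays and 39842 to 42290.5 on untreated obese arrays, and 3 of 8 fell. Endothelial markers (7 genes) summed to 4726 to 7378.5 on ligand arrays, against 6249.8 to 6348 on untreated obese arrays and 7910.5 to 9382 on lean arrays, with 1 higher and 2 lower with the ligands. Of these, the tight junction gene Cldn5 fell by 2.04 ± 0.12 log2 (adjusted p = 3.29e-09). Eng fell by 0.45 ± 0.15 (adjusted p = 0.0404), Kdr rose by 0.95 ± 0.12 (adjusted p = 3.12e-05), and the median of the 7 was -0.0038 log2. Adipocyte markers (5 genes) summed to 33863 to 46827 on ligand arrays and 31506 to 38871 on untreated obese arrays. With the ligands 2 of the 5 rose, Cfd (0.62 log2) and Lipe (0.38), and 1 fell, Lep (-0.81). The 7 hepatocyte markers summed to 3516 to 10056 on ligand arrays, against 1020 to 1272 on untreated obese ones. Of these, 3 were tested and 1 was called, the albumin gene Alb (4.43 ± 0.29 log2, adjusted p = 1.87e-08), and the median of the 3 was -0.050 log2. The part of these markers in the member changes was not tested.

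In liver no member was called between untreated obese and lean rats, where 0.672% of all probe sets were. By limma's unadjusted p, 4 of the 7 tested lay under 0.05, beside 929 of all 9519 probe sets. Hsd11b1 had 10369.9, 7446.5 and 5619 on untreated obese arrays, against 10566, 17422 and 10131 on lean arrays (-0.70 ± 0.22 log2, adjusted p = 0.197). The highest obese array lay just above the lowest lean one. Nr3c1 had 1168, 1057 and 1267 on untreated obese arrays, against 1795, 1563 and 1554 on lean arrays, without overlap (-0.49 ± 0.22 log2, adjusted p = 0.47). Sgk1 (-0.53 ± 0.22 log2, adjusted p = 0.417) and Fkbp5 (0.47 ± 0.22 log2, adjusted p = 0.486) were the other two.

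The ligands gave no member call in liver relative to untreated obese rats, where 0.494% of all probe sets were called for their mean. Unadjusted p lay under 0.05 for Fkbp5 and Sgk1, beside 1011 of all 9519 probe sets. Liver Fkbp5 signals were 750.4, 796 and 782 with AG035029, 619.9, 837.5 and 955 with pioglitazone, 552, 871 and 707 with rosiglitazone and 936, 940.0 and 792 with troglitazone. For Fkbp5 in liver, untreated obese arrays had 665.5, 477 and 363 and lean arrays 366, 346 and 325. Treated livers overlapped the untreated obese ones at their lower end and lay above every lean one. The change was 0.67 ± 0.17 log2 relative to untreated obese rats (adjusted p = 0.092) and 1.14 ± 0.17 relative to lean rats (adjusted p = 0.000492). That was the 1 member called between treated and lean livers, where 3.18% of all probe sets were. Nr3c1 differed by -0.57 ± 0.17 log2 from lean livers (adjusted p = 0.0772), and was called without AG035029 array 3 (0.0357) or rosiglitazone array 2.

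The other liver members were not called with treatment. Hsd11b1 ranged from 6958 to 10921 on treated arrays (0.27 ± 0.17 log2 relative to untreated obese rats, adjusted p = 0.635). Klf15 stayed within 1289 to 2675 over all 18 liver arrays and Tsc22d3 within 947 to 2065. Gadd45a varied widely within groups: untreated obese arrays had 571, 1122 and 257 and lean arrays 569, 1271 and 406, against a treated range of 589 to 1028. Single ligands gave 0 of 28 member calls, beside 0.2% of all probe sets with AG035029, 0.021% with pioglitazone, 0.063% with rosiglitazone and 0.662% with troglitazone. Unadjusted p was under 0.05 in 4 of the 28, all Fkbp5. Over all 9519 probe sets that held for 898 with AG035029, 662 with pioglitazone, 893 with rosiglitazone and 948 with troglitazone. The Fkbp5 change was largest with troglitazone (0.84 ± 0.22 log2, adjusted p = 0.0944). That last value reached 0.0403 without untreated obese array 1. Trim63, untested in liver, read 184.8 on the troglitazone array 3 with the high muscle fibre sum and 217.6 on AG035029 array 1, whose muscle fibre sum was 1189, against 8.1 to 87.6 elsewhere. Fbxo32 read 199.4 on the same AG035029 array and at most 77.6 on the other liver arrays.

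In muscle no member was called between untreated obese and lean rats, a comparison in which 0.021% of all probe sets (2 of 9519) were called. Fkbp5 had 1300.1, 1668 and 1335 on untreated obese arrays, against 761, 755 and 543 on lean arrays. The lowest obese array stood well above the highest lean one. The difference was 1.05 ± 0.22 log2 (95% interval 0.58 to 1.52, adjusted p = 0.2). Fkbp5 was the 1 member with an unadjusted p under 0.05, beside 464 of all 9519 probe sets. Without rosiglitazone array 1, which enters only the shared spread, the adjusted p was 0.0402. Both ligases lay higher in obese muscle without a call. For Trim63, untreated obese arrays had 4304.5, 4966 and 3200.2, against 2819, 2309 and 2752 on lean arrays (0.64 ± 0.31 log2, adjusted p = 0.997). Fbxo32 had 444.5, 371 and 643 on untreated obese arrays, against 343, 336 and 133.5 on lean arrays (0.87 ± 0.43 log2, adjusted p = 0.997). Neither pair of groups overlapped, but such separation was not counted over all probe sets and does not by itself show a difference.

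With ligand treatment no member was called in muscle relative to untreated obese rats, where 0.242% of all probe sets were called for the mean of the ligands. Muscle Fkbp5 signals were 1957, 2667 and 2361 with AG035029, 1314, 1659.5 and 1769.6 with pioglitazone, 1264.5, 2746 and 2107 with rosiglitazone and 2203, 2073 and 2790.5 with troglitazone, and the change was 0.49 ± 0.18 log2 (adjusted p = 0.51). Tsc22d3 had 5246, 6127.5 and 4351 with AG035029, 3992, 4427 and 4557 with pioglitazone, 3738, 3558 and 4080.0 with rosiglitazone and 3914, 4822 and 5112 with troglitazone. For Tsc22d3 in muscle, untreated obese arrays had 5560.5, 6346 and 4547.5 and lean arrays 4239, 4488 and 4529, and the rosiglitazone arrays lay below all of these. Its mean change was -0.29 ± 0.12 log2 (adjusted p = 0.626), and with rosiglitazone -0.52 ± 0.15 (adjusted p = 0.362). Treated against lean muscle gave 1 call, Fkbp5 at 1.54 ± 0.18 log2 (adjusted p = 3.5e-05), beside 1.11% of all probe sets.

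Mean muscle signals of both ligases were highest with troglitazone, without a call. Trim63 signals in muscle were 3321.5, 5251 and 5232 with AG035029, 2774, 3891 and 4853 with pioglitazone, 3133.5, 5448.5 and 4597 with rosiglitazone and 4339, 9484 and 13265 with troglitazone. Troglitazone arrays 2 and 3 exceeded every other muscle array, while its array 1 lay within the untreated obese range. The change with troglitazone was 0.996 ± 0.31 log2 (adjusted p = 0.205), and 0.0166 without array 1. Fbxo32 in muscle had 698, 943.5 and 445 with AG035029, 366, 414 and 219 with pioglitazone, 379.8, 665 and 540.0 with rosiglitazone and 465, 783 and 1994.5 with troglitazone, and its troglitazone change was 0.90 ± 0.43 log2 (adjusted p = 0.46). The array with the highest Trim63 was also the one with the highest Fbxo32. Relative to lean muscle, the mean of the ligands differed by 0.91 ± 0.25 log2 for Trim63 (adjusted p = 0.0883) and by 1.11 ± 0.34 for Fbxo32 (adjusted p = 0.148). The Trim63 difference from lean muscle had an adjusted p of 0.00765 without troglitazone array 1.

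Hsd11b1 in muscle had 404, 356.5 and 391 with AG035029, 317, 359 and 437 with pioglitazone, 134.5, 175 and 286 with rosiglitazone and 629, 505 and 319 with troglitazone. For Hsd11b1, untreated obese muscle gave 419, 345 and 263 and lean muscle 448.5, 368 and 487. The 3 rosiglitazone arrays lay below all arrays of the other ligands, and 1 of them overlapped the untreated obese group (-0.77 ± 0.27 log2, adjusted p = 0.507). Single ligands gave 0 of 36 member calls in muscle, beside 0.116% of all probe sets with AG035029, 0.231% with pioglitazone, 0.0315% with rosiglitazone and 0.704% with troglitazone. Unadjusted p was under 0.05 in 1 test with AG035029, 1 with pioglitazone, 3 with rosiglitazone and 3 with troglitazone. Over all 9519 probe sets that held for 640, 569, 641 and 1017, in the same order of ligands. Muscle arrays of treated rats had higher adipocyte marker sums. The 5 markers summed to 8527.5 to 32547 on ligand arrays, against 3334 to 5971 on untreated obese arrays and 3437 to 3908 on lean arrays. Of these, 3 were tested and 1 was called higher with the ligands, Fabp4, beside 0.221% of all probe sets. On the troglitazone arrays 1, 2 and 3 the adipocyte sums were 32547, 27219 and 15552, while Trim63 was 4339, 9484 and 13265. Array 1 also stood apart from arrays 2 and 3 in other marker sums. Erythroid markers summed to 52719, 19579 and 14084 on the 3 arrays, and fibroblast markers to 44890, 23549 and 27257. The part of these markers in the muscle results was not tested.

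**Figure D3:**
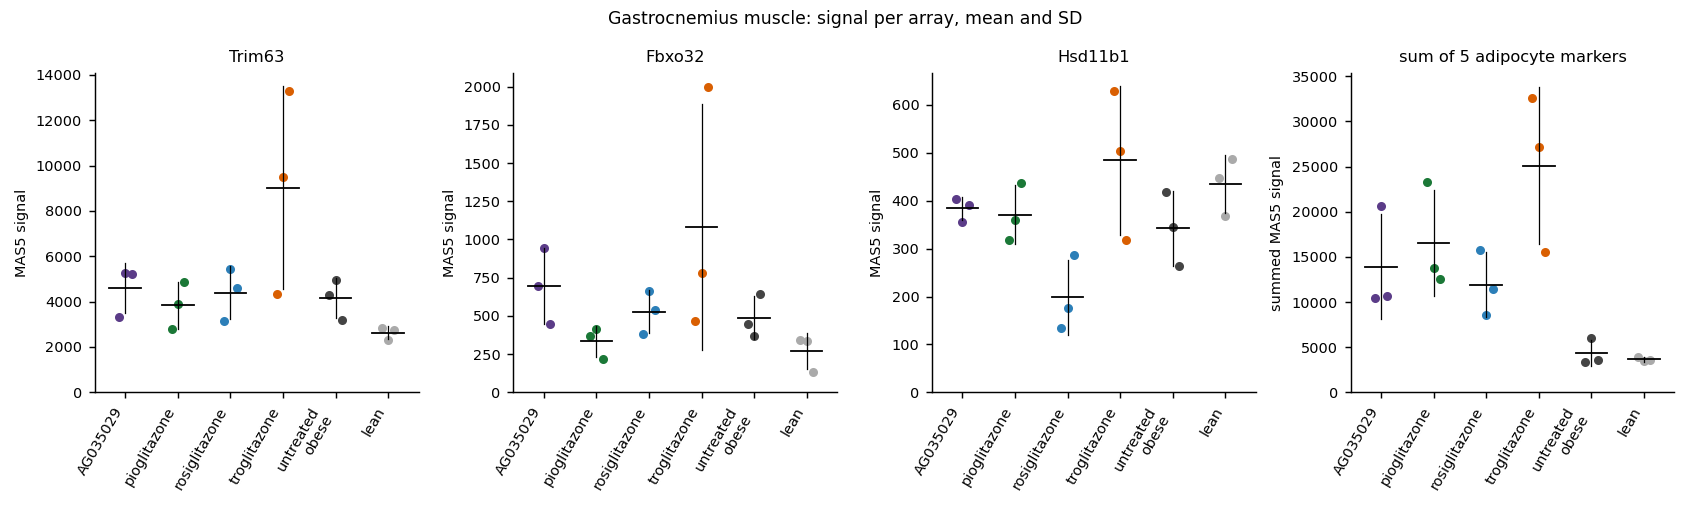
MAS5 signals of Trim63, Fbxo32 and Hsd11b1 in gastrocnemius muscle and the summed signal of 5 adipocyte markers on the same arrays, with 1 point per array, a line at the mean and a bar of 1 SD, 3 arrays per group. Troglitazone arrays 2 and 3 stand above all others for Trim63, rosiglitazone arrays lie lowest among the ligands for Hsd11b1, and marker sums of the ligand arrays lie above both untreated groups.

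Fkbp5 was higher in treated than in lean rats in each tissue, by 0.73 log2 in adipose, 1.14 in hepatic and 1.54 in muscle samples. In adipose tissue, Fkbp5 of untreated obese rats lay near the lean level (-0.21 log2), and in muscle it lay above it (1.05). The test of that tissue difference was not called, with an adjusted p of 0.108, and the adipose minus muscle contrast was -1.26 ± 0.32 log2 (adjusted p = 0.108). The change of Fkbp5 with the ligands was 0.94 in adipose, 0.67 in hepatic and 0.49 in muscle samples, and no tissue difference was called (adjusted p = 0.573). The 95% interval of the adipose minus muscle difference was -0.069 to 0.96 log2, so likeness was not shown.

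**Figure D4:**
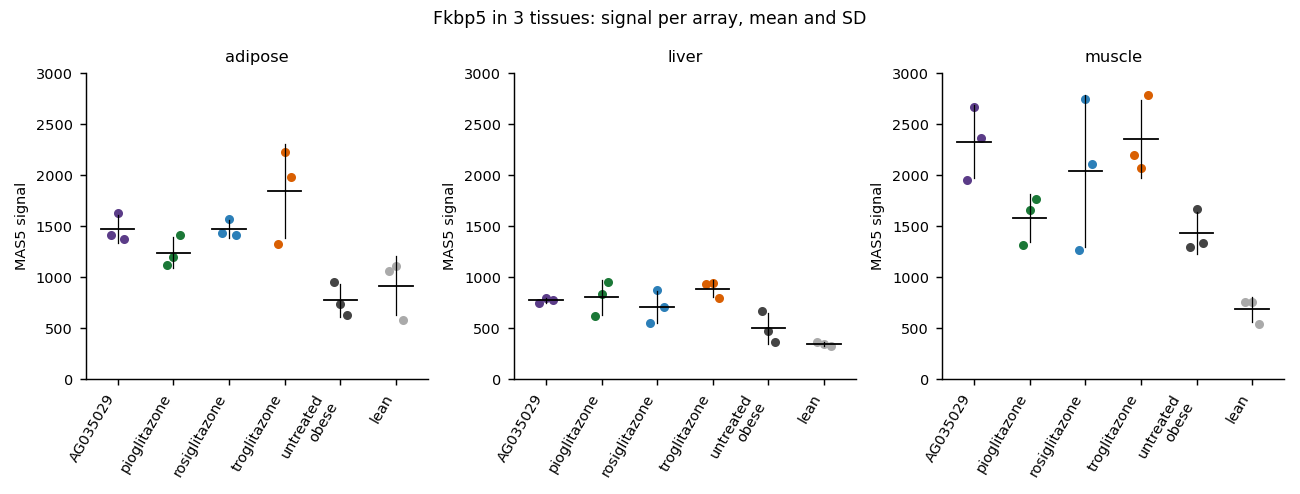
MAS5 signals of Fkbp5 in the 3 tissues on one scale, with 1 point per array, a line at the mean and a bar of 1 SD, 3 arrays per group. Treated arrays lie above every lean array in each tissue, and untreated obese muscle arrays (1300.1 to 1668) also lie above lean ones (543 to 761).

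Tsc22d3 and Gadd45a changed differently with the ligands in different tissues, 2 calls among 9 members where 4.93% of 11520 probe sets were called. Tsc22d3 rose by 0.56 log2 in adipose tissue, and its changes in liver (-0.038) and muscle (-0.29) were not called. The tissue test gave an adjusted p of 0.0257, with an adipose minus muscle difference of 0.85 ± 0.21 log2 (adjusted p = 0.0199). Gadd45a fell in adipose tissue (-1.07) and was not called in liver (0.43) or muscle (-0.036). Its tissue test gave an adjusted p of 0.0125, with an adipose minus liver difference of -1.499 ± 0.35 log2 (adjusted p = 0.00575). Leaving out 1 adipose untreated obese array (array 1 for both genes, array 3 for Tsc22d3) or muscle untreated obese array 2 (Tsc22d3) ended these calls, with adjusted p up to 0.147 for Tsc22d3 and 0.0616 for Gadd45a. For untreated obese minus lean rats the tissues gave 0 member calls, beside 0.868% of all probe sets, with the smallest adjusted p for Klf15 (0.0943). By unadjusted p 3 of the 9 lay under 0.05, those of Klf15, Fkbp5 and Hsd11b1, and the share over all probe sets was not counted. Klf15 was called without liver or muscle untreated obese array 3 (adjusted p down to 0.0222), and Fkbp5 without lean adipose array 3 (0.026).

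**Figure D5:**
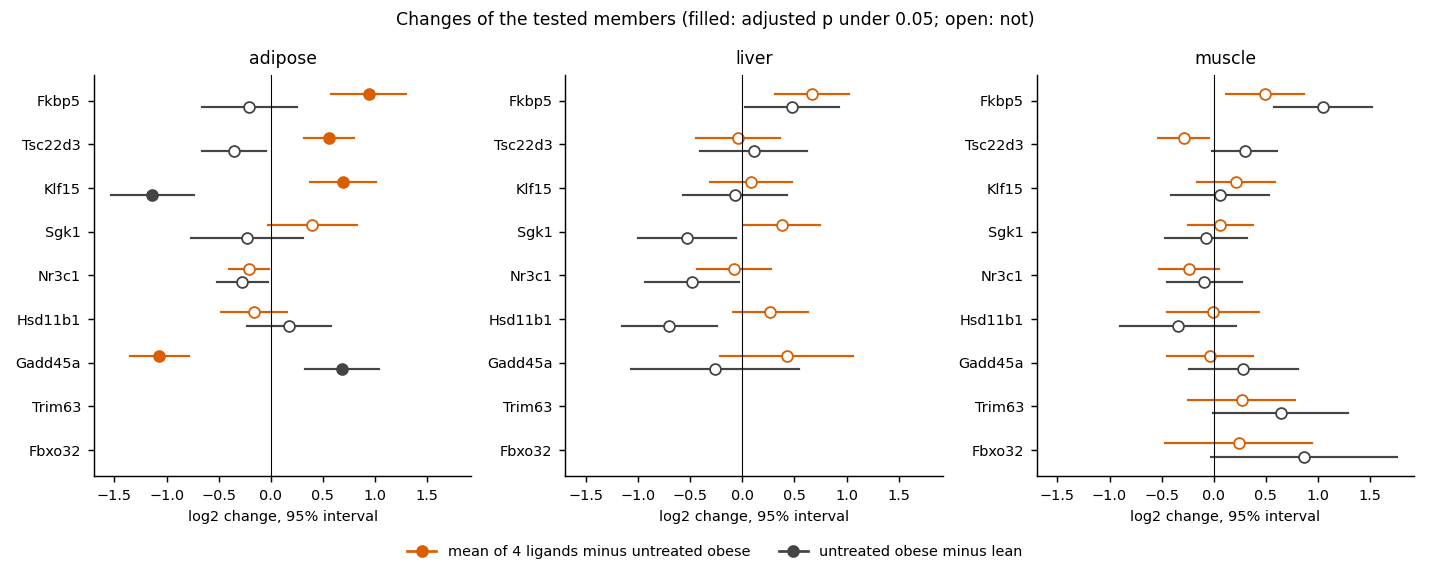
Log2 changes of the members that passed the filter in each tissue, for the mean of 4 ligands minus untreated obese rats and for untreated obese minus lean rats, with 95% intervals. Filled points had an adjusted p under 0.05, which occurred only in adipose tissue among these contrasts: 4 for the ligands and 2 for obesity.

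The 4 ligands were compared with each other over 6 pairs, and no member was called in any tissue by the F-test or by a pair, with p adjusted over all probe sets. Over all probe sets, the F-test called 0.0315% for adipose tissue, 0.0105% for liver and 0% for muscle. The 6 pairs together called 0.0105% for adipose tissue, 0.00525% for liver and 0.00875% for muscle. Unadjusted F-test p lay under 0.05 for Tsc22d3 and Nr3c1 in adipose tissue, for 0 members in liver, and for Hsd11b1, Trim63, Fbxo32 and Tsc22d3 in muscle. Beside these stood 878, 601 and 921 of all 9519 probe sets, in the same order of tissues. In muscle, Hsd11b1 with rosiglitazone minus troglitazone was -1.21 log2 (95% interval -1.77 to -0.66, adjusted p = 0.163). Its AG035029 minus rosiglitazone difference was 0.94 (0.38 to 1.502, adjusted p = 0.389). Trim63 with pioglitazone minus troglitazone was -1.12 log2 (-1.77 to -0.47, adjusted p = 0.422), and Fbxo32 for the same pair was -1.43 (-2.32 to -0.54, adjusted p = 0.467).

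In adipose tissue the thiazolidinediones that differ in the chroman ring were set side by side. Rosiglitazone minus troglitazone was -0.49 log2 for Tsc22d3 (-0.79 to -0.18, adjusted p = 0.24) and -0.39 for Nr3c1 (-0.64 to -0.15, adjusted p = 0.237). That pair gave -0.29 for Fkbp5 (-0.75 to 0.17), -0.45 for Klf15 (-0.85 to -0.050) and -0.034 for Gadd45a (-0.39 to 0.32). Pioglitazone minus troglitazone was -0.54 log2 for Fkbp5 (-0.995 to -0.084, adjusted p = 0.697) and -0.44 for Klf15 (-0.84 to -0.044, adjusted p = 0.701). It was -0.35 for Tsc22d3 (-0.66 to -0.049), -0.14 for Nr3c1 (-0.38 to 0.11) and 0.38 for Gadd45a (0.023 to 0.74). Pioglitazone minus rosiglitazone, the pair that shares the pyridine, was -0.25 log2 for Fkbp5 (-0.71 to 0.21), 0.0061 for Klf15 (-0.39 to 0.40) and 0.41 for Gadd45a (0.057 to 0.77, adjusted p = 0.787). The same pair gave 0.26 for Nr3c1 (0.013 to 0.50, adjusted p = 0.808) and 0.13 for Tsc22d3 (-0.17 to 0.44). AG035029 minus rosiglitazone gave -0.0027 log2 for Fkbp5 (-0.46 to 0.45). A missing call over such intervals does not show that the compounds act alike.

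Other glucocorticoid-induced genes were counted from a list of 30, of which 28 were on the array. This list and those that follow were chosen with earlier results known, so their counts test no excess. In adipose tissue 4 of 23 tested rose with the ligands and 0 fell, beside 9.01% of all probe sets that rose and 11.6% that fell, with a list median of -0.019 log2 against -0.048 over all probe sets. The 4 were Pdk4, which shuts down pyruvate dehydrogenase (1.87 ± 0.21 log2, adjusted p = 6.29e-06), the triglyceride enzyme gene Lpin1 (0.95 ± 0.11, 1.13e-05), the lipoprotein lipase inhibitor gene Angptl4 (0.52 ± 0.13, 0.00818) and the alanine aminotransferase gene Gpt (0.55 ± 0.14, 0.00924). Pdk4 and Angptl4 are also known targets of PPAR receptors. Between untreated obese and lean adipose tissue, 2 of 23 rose and 1 fell, beside 3.16% of all probe sets that rose and 2.86% that fell. They were the cell cycle inhibitor gene Cdkn1a (1.43 ± 0.30, adjusted p = 0.00741), the phagocyte receptor gene Mertk (0.86 ± 0.24, 0.0389) and the G-protein regulator gene Rgs2 (-0.93 ± 0.21, 0.0124). In liver 3 of 28 rose with the ligands, beside 0.305% of all probe sets. They were Igfbp1, an IGF binding protein gene (2.20 ± 0.33, adjusted p = 0.00314), the insulin receptor substrate gene Irs2 (1.70 ± 0.33, 0.0192) and the clock gene Per1 (1.41 ± 0.27, 0.0205). Per1 was also the 1 of 28 that differed between untreated obese and lean livers (-1.52 ± 0.35, adjusted p = 0.0435), beside 0.672% of all probe sets. That call was ended by 8 of 10 other settings (up to 0.224). Leaving out untreated obese liver array 3 ended the Irs2 call (0.155), and array 1 or 2 the Per1 rise (up to 0.138). In muscle 1 of 20 rose with the ligands, beside 0.221% of all probe sets. That was Pck1, the glyceroneogenesis and gluconeogenesis enzyme gene (2.69 ± 0.43, adjusted p = 0.00278), with an adjusted p of 0.0583 without untreated obese muscle array 1. It rose in arrays where the adipocyte fatty acid binding protein gene Fabp4 rose too (2.03 ± 0.26, adjusted p = 0.000296).

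Of 8 genes of branched-chain and other amino acid breakdown linked to Klf15 that were tested in adipose tissue, 3 fell in untreated obese relative to lean rats, where 6.02% of all probe sets were called. They were the aminotransferase gene Bcat2 (-0.53 ± 0.11 log2, adjusted p = 0.00592) and the dehydrogenase subunit genes Bckdha (-0.75 ± 0.18, 0.0202) and Bckdhb (-0.46 ± 0.13, 0.0397). With the ligands 3 of 8 rose, where 20.6% of all probe sets were called: Bckdhb (0.85 ± 0.10 log2, adjusted p = 1.48e-05), Bckdha (0.70 ± 0.15 log2, adjusted p = 0.00216) and Gpt. The list medians were -0.25 log2 for obesity and 0.18 for the ligands, against -0.019 and -0.048 over all probe sets. In liver and muscle 0 members of this list were called in either contrast.

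Of 12 chaperones and partners tested in adipose tissue, 0 were called for obesity and 2 fell with the ligands, where 20.6% of all probe sets were called, the cyclophilin gene Ppid (-0.33 ± 0.10 log2, adjusted p = 0.0261) and the chaperone-linked ubiquitin ligase gene Stub1 (-0.33 ± 0.11, 0.0458). Of 5 steroid activation and transport genes, H6pd, whose product feeds NADPH to the Hsd11b1 enzyme, rose with the ligands (0.84 ± 0.16, adjusted p = 0.000865), and Hsd11b2, the gene of the inactivating enzyme, fell (-0.56 ± 0.12, 0.0032). Pgrmc1, a steroid-binding membrane protein gene, was higher in untreated obese than in lean adipose tissue (0.44 ± 0.12, adjusted p = 0.0315).

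Among 21 muscle atrophy and FoxO genes tested in adipose tissue, 4 rose with the ligands and 1 fell, a share near the 20.6% called over all probe sets. The 4 that rose were the mitophagy gene Bnip3 (0.74 ± 0.12 log2, adjusted p = 0.000292), the ubiquitin-conjugating enzyme gene Ube2d1 (0.36 ± 0.11, 0.0282), the stress factor gene Atf4 (0.28 ± 0.088, 0.0304) and the sestrin gene Sesn1 (0.35 ± 0.11, 0.033). The 1 that fell, named after its value was seen, was the autophagy gene Atg12 (-0.33 ± 0.11, adjusted p = 0.0348). In muscle itself 0 of 22 genes of this list and 0 of 6 denervation-responsive genes were called in either contrast. Of 10 genes of the Gadd45 family and p53-linked stress, 2 rose with the ligands in adipose tissue, where 9.01% of all probe sets were called higher. They were Atf4 and Sesn1, while Gadd45a fell. Of 5 targets of Sgk1 and sodium transport genes, 3 fell there, where 11.6% of all probe sets were called lower. They were the sodium pump subunit gene Atp1b1 (-1.59 ± 0.38, adjusted p = 0.00636) and the kinase's substrates Ndrg2 (-0.61 ± 0.16, 0.0111) and Ndrg1 (-0.67 ± 0.18, 0.0127). Sgk1 itself was not called there (adjusted p = 0.18). Atp1b1 was higher in untreated obese than in lean rats (2.23 ± 0.48, adjusted p = 0.00918).

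Genes with the most similar patterns were sought among 6448 probe sets by Pearson r over the 18 group means after removing each tissue's mean. The group means share arrays and scaling, so r is a description. For Trim63 and Fbxo32, r also rests on adipose and liver means, where both were too dim to pass the filter. Fkbp5 was closest to Pnpla2, the adipose triglyceride lipase gene (r = 0.951), and to Glul, the glutamine synthetase gene (0.886), itself on the glucocorticoid-induced list. Trim63 was closest to the fatty acid oxidation genes Acaa2 (0.899) and Decr1 (0.895). Klf15 came with Gpr146 (0.879) and Mtarc2 (0.864), Nr3c1 with Pbrm1 (0.863) and Glis2 (0.847), and Gadd45a with Rhog (0.842) and Mast2 (0.776). The nearest genes of Sgk1 were Echdc1 (0.824) and Zfp189 (0.756), those of Hsd11b1 Grn (0.804) and Lrp6 (0.783), those of Tsc22d3 Atosa (0.772) and Smim19 (0.769), and those of Fbxo32 Akap12 (0.776) and Kitlg (0.746). Among the members themselves, Fkbp5 and Trim63 had r = 0.735 and Klf15 and Tsc22d3 0.645, while Fkbp5 and Nr3c1 had -0.696.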

How the data were processed

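Epididymal adipose tissue, liver and gastrocnemius muscle were profiled on Affymetrix Rat Expression 230A arrays, with RNA of 2 rats pooled per array and 3 arrays per group, per the labels' protocols. The deposited values are linear MAS5 signal intensities, per the submitters' processing notes. Without control probe sets, the mean after trimming 2% at each end lay between 495 and 499 on all 54 arrays. The version of MAS5 and any detection calls were not used here. After 57 control probe sets were left out, 12783 of 15866 probe sets had 1 gene symbol, 312 several and 2771 none in the platform annotation.

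Log2(signal + 20) was tested with limma 3.58.1 in R 4.3.3, with 1 fit of 18 arrays per tissue, an intensity trend in eBayes, and Benjamini-Hochberg adjustment over the 9519 probe sets above the tissue's 40th percentile. Differences between tissues came from 1 fit of 54 arrays and 11520 probe sets. The procedure was tested on simulated data. Named genes were all 9 members, at most 4 called genes per list and comparison by smallest adjusted p, and the 2 genes most like each member. The members and lists were chosen with earlier results of these data known. Alternatives were other pseudocounts, filters, scalings, thresholds and fits, and leaving out each array. The number of arrays limits the precision.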

Additional observations from a re-analysis of the deposited data

Results flagged for a closer look

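Tsc22d3 and Gadd45a stood out because the effect of the ligands relative to untreated obese rats differed between tissues in the test of that difference. For Tsc22d3 the adjusted p was 0.0257, with changes of 0.56 log2 for adipose tissue, -0.038 for liver and -0.29 for muscle. For Gadd45a it was 0.0125, with changes of -1.07 log2 for adipose tissue, 0.43 for liver and -0.036 for muscle.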

How the results depend on the processing

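No member call changed direction. Of 386 repeats of the 36 called member results under other settings, 366 kept the call, and of 1008 with 1 array left out, 975 did. The 36 include the tissue differences in lean level, with adjusted p down to 5.4e-22 for Hsd11b1. The arrays left out include those of groups outside a contrast. These totals therefore overstate how firmly the obesity and ligand calls held, several of which were lost without 1 array. With a threshold of 0.01, adipose calls numbered 1 for untreated obese minus lean rats, 2 for ligands minus lean rats and 9 of 28 over single ligands, and 0 members differed between tissues in the ligand effect. Array weights gave 2 calls for ligands minus lean rats in liver, 2 in muscle and 2 tissue differences in obese minus lean rats (Klf15 and Fkbp5). With the replicate number as a block, muscle gave 2 calls for ligands minus lean rats. The block changed the count of calls in no other comparison. Residuals of same-numbered arrays correlated by 0.018 on average for adipose tissue, 0.0032 for liver and 0.012 for muscle. Between tissues, residuals of arrays of the same condition and number correlated by 0.019 on average for adipose tissue and liver. The means were 0.0076 for adipose tissue and muscle and 0.00024 for liver and muscle. Such small means cannot decide whether the numbers pair arrays. The labels do not say so, nor whether the same rats gave all tissues. The main tests between tissues treated the arrays as independent.

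With 1 array left out, member calls ranged from 1 to 2 for untreated obese minus lean rats in adipose tissue, 0 to 1 in muscle and 0 to 1 for its tissue difference. For ligands minus lean rats they ranged from 1 to 4 for adipose tissue, 1 to 2 for liver and 1 to 2 for muscle. Single ligands gave 10 to 15 calls for adipose tissue, 0 to 1 for liver and 0 to 1 for muscle, and the tissue difference in the ligand effect 0 to 2. Over all probe sets, untreated obese minus lean adipose tissue gave 573 calls, 1106 with array weights and 240 at the threshold of 0.01. The ligand effect there gave 1963 calls, 1110 at 0.01 and 1184 without untreated obese array 1. It gave 47 in liver, against 29 with no filter, 28 with no trend and 17 at 0.01. Ligands minus lean muscle gave 106, against 196 with array weights and 52 at 0.01. For ligands minus untreated obese adipose tissue, median centring gave 1145 higher and 660 lower calls, where the main scaling gave 858 and 1105, and the median of all adipose probe sets with troglitazone was 0.072 log2, where it had been -0.066. Dim probe sets such as Trim63 outside muscle have no detection call, which limits what their levels show.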
